A study of Mus musculus with 8 samples.

Results

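Agtrap, Gnpat, Dcaf8, Pofut1, C2cd5, Cactin and Pogz are 7 mouse genes picked because each carried 1 strong crosslinking site of the RNA-binding protein Zmat3 in all 3 control lines. They were 7 of the 8205 protein-coding genes with called peaks in all 3 controls, 7 of the 194 genes with a bound region in at least 2 controls, and 7 of the 76 genes with such a site in all 3. The genes were chosen by their log2 folds at the site over input and over the knockout IP, so these folds are given as a description and were not tested. The reads at the site are part of the same measurement. The position of the site and the median of the gene's other peaks were not used, while the lack of another strong peak was. That median is a fold over the same knockout IP as the site folds, so it cannot be taken as independent of the choice.

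Zmat3 is a zinc finger protein whose gene is a transcriptional target of p53. It binds RNA and is known to affect the splicing and the stability of the transcripts it binds. In crosslinking and immunoprecipitation (CLIP), ultraviolet light links a protein to the RNA it touches, the protein is pulled down, and the attached RNA fragments are sequenced. A place where fragments pile up is called a peak, and its fold compares the immunoprecipitate (IP) with a background library.

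The cells were mouse embryonic fibroblasts transformed with E1A and HrasG12V. The 3 control lines had the genotype Cas9+;E1A;HrasG12V and carried the negative control guides EV (control 1), SPA (control 2) and ACOCA (control 3). The knockout was 1 line, Zmat3-/-;E1A;HrasG12V, with no guide, and its label does not name Cas9, so the absence of Zmat3 cannot be told apart from the other differences between that line and the controls. The 8 samples were 4 IPs made with an anti-Zmat3 antibody and the 4 matching inputs, and the gel part from 35 to 110 kDa was sequenced. Control cells had been selected in puromycin for 3 days and grown for 10 more days.

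The lists held 122284 to 153774 called peaks per control comparison and 167648 peaks for the knockout IP over its input. The label of the knockout could not be checked from the Zmat3 gene itself, since RNA peaks say nothing about the protein: it had 42, 48 and 39 called peaks in controls 1, 2 and 3 and 38 in the knockout. Of 14 fibroblast markers, 6, 8 and 5 had a called peak in controls 1, 2 and 3 and 6 in the knockout, and Col1a1, Col1a2, Thy1, S100a4, Lum and Dcn had none in any of these lists. Endothelial markers had no called peak in any list (0 of 4), and of 6 leukocyte markers only Cd68 had one. Of 4 epithelial markers, 1, 2 and 2 had one in controls 1, 2 and 3 and 3 in the knockout; of 4 neural markers, 1 in each control and 0 in the knockout; of 4 muscle markers, 1, in control 2 alone. Their part in the results was not tested.

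Enriched peaks were those whose log2 fold and −log10 p, both computed by the authors, each reached 3. A site is a region where peaks of all 3 controls were enriched over input and over the knockout IP, and the value of a library is its highest fold there. In the lists over the knockout IP, 10 of the 142 called peaks of the 7 genes were enriched in control 1 (0.621% of all called peaks), 18 of 142 in control 2 (1.09%) and 13 of 147 in control 3 (0.648%). Over input, 11, 12 and 9 of the same numbers of peaks were enriched, beside 1.02%, 1.05% and 0.494% of all called peaks in controls 1, 2 and 3. The choice of the genes used these comparisons, so nothing is read from the difference. Among all genes, 2.36% had a region in at least 2 controls and 0.926% had a site in all 3. In the knockout IP over its input, 0 of the 119 called peaks of the 7 genes were enriched, against 0.316% of all its peaks, and their highest −log10 p was 1.07, in Gnpat. The genes had 0 called peaks on the opposite strand in any of the 7 lists.

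Ranked by the lowest of the 3 folds over the knockout IP, the 7 genes held ranks 2 to 19 of the 76 genes, with 11 other genes among them. Agtrap, the highest of the 7, had a lowest log2 fold of 6.35, and the gene just above it was Fnbp4 with 6.47. Pogz, the lowest of the 7, had 5.17, and the next genes were Inf2 with 5.11 and Ptpn12 with 5.06.

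Agtrap encodes a membrane protein that binds the angiotensin receptor and promotes its internalisation. Its site lay on chromosome 4, 148084001 to 148084067 (mm10, minus strand), 67 nt long and 36.6% of the way along the gene from its 5′ end. The log2 folds over the knockout IP were 6.35, 6.38 and 7.26 in controls 1, 2 and 3 (6.66 ± 0.51, SD, n = 3). Over input they were 3.75, 4.52 and 4.68 (4.32 ± 0.50, SD, n = 3). Control 3 was the highest over both backgrounds, and its site peak had the highest fold over the knockout IP of the whole list of that control (rank 1). The 3 peaks started within 2 nt of each other and ended within 7 nt.

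C2cd5 encodes a C2 domain protein known from adipocytes, where it takes part in the insulin-driven delivery of glucose transporter vesicles to the surface. Its site lay on chromosome 6, 143061877 to 143061978 (minus strand, 102 nt), 42.8% along the gene. Against the knockout IP, the log2 folds were 5.41, 6.42 and 6.24 in controls 1, 2 and 3 (6.02 ± 0.54, SD, n = 3). Over input they were 4.54, 7.13 and 6.25 (5.98 ± 1.32, SD, n = 3), the widest spread over input among the 7 genes. Control 1 was the lowest over both backgrounds.

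Gnpat and Pofut1 encode enzymes. Gnpat is the peroxisomal acyltransferase that starts the synthesis of ether lipids, and its site lay on chromosome 8, 124885599 to 124885764 (plus strand, 166 nt), 83.8% along the gene. The log2 folds over the knockout IP were 5.96, 6.18 and 6.11 in controls 1, 2 and 3 (6.08 ± 0.11, SD, n = 3). Over input they were 5.67, 5.90 and 5.12 (5.56 ± 0.40, SD, n = 3). The 3 controls thus lay closer together over the knockout IP than at any of the other 6 sites.

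Pofut1 is the fucosyltransferase that modifies the EGF-like repeats of Notch receptors. Its site lay on chromosome 2, 153259388 to 153259632 (plus strand), 60.9% along the gene, and was with 245 nt the longest of the 7. Against the knockout IP, the log2 folds were 5.46, 6.23 and 5.71 in controls 1, 2 and 3 (5.80 ± 0.39, SD, n = 3). Over input they were 3.17, 3.95 and 3.14 (3.42 ± 0.46, SD, n = 3). These were the lowest folds over input among the 7 sites, and in controls 1 and 3 they lay just above the threshold of 3.

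Dcaf8 encodes a substrate receptor of the CUL4 ubiquitin ligases. Its site lay on chromosome 1, 172179740 to 172179871 (plus strand, 132 nt), 65.7% along the gene. The log2 folds over the knockout IP were 5.85, 6.27 and 6.07 in controls 1, 2 and 3 (6.07 ± 0.21, SD, n = 3), and over input 4.56, 4.21 and 4.09 (4.29 ± 0.25, SD, n = 3). Control 1 was the lowest over the knockout IP and the highest over input. The site was called as 1 peak in control 1, 3 abutting or overlapping peaks in control 2 and 2 abutting peaks in control 3.

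Cactin and Pogz act in the nucleus. Cactin is a spliceosome protein, and its site lay on chromosome 10, 81324680 to 81324824 (plus strand, 145 nt), 70.9% along a gene of 5149 nt, the shortest of the 7. The log2 folds over the knockout IP were 5.30, 6.65 and 5.54 in controls 1, 2 and 3 (5.83 ± 0.72, SD, n = 3), and over input 5.02, 5.37 and 3.55 (4.65 ± 0.97, SD, n = 3). Control 2 stood above the other two over the knockout IP, and control 3 below them over input.

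Pogz encodes a zinc finger protein that binds the heterochromatin protein HP1. Its site lay on chromosome 3, 94869905 to 94870050 (plus strand, 146 nt), 77.6% along the gene. Against the knockout IP, the log2 folds were 5.35, 6.33 and 5.17 in controls 1, 2 and 3 (5.62 ± 0.62, SD, n = 3). Over input they were 5.50, 6.93 and 5.30 (5.91 ± 0.89, SD, n = 3). Each control had 2 abutting peaks in the site. Another gene overlaps the span of Pogz, while the spans of the other 6 genes overlap none.

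**Figure D1:**
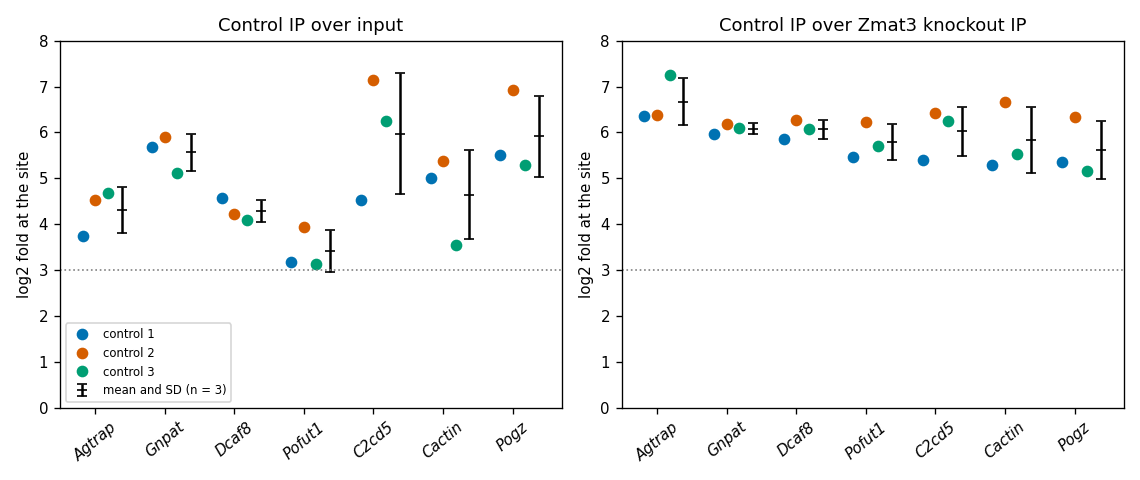
Log2 fold at the site of each gene in controls 1, 2 and 3, over input (left) and over the knockout IP (right), with the mean and SD of 3 controls as bars and the threshold of 3 as a dotted line. The points lie between 5.17 and 7.26 over the knockout IP and between 3.14 and 7.13 over input, with Pofut1 lowest over input.

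Across the 21 pairs of gene and control, the site held the highest fold of the gene over both backgrounds in 21. The peak with the highest fold over the knockout IP also had the highest −log10 p of the gene in 19. In the remaining pairs, Pogz in controls 1 and 3, the abutting peak of the same site had it. The sites lay 36.6% to 83.8% along the genes (median 65.7%), and 5 of 7 lay beyond the middle. The 56 other genes with a site in all 3 controls and a known strand had a median of 71.7%, and the medians of all called peaks were 51.6%, 56.5% and 53.0% in controls 1, 2 and 3. Exon or intron, base composition and motifs of the sites were not analysed here, and no sequence was used.

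No knockout peak overlapped any of the 7 sites (0 of the 119 knockout peaks in these genes). The genes were chosen for high folds over the same knockout IP, which fixes few knockout reads at the site, so this absence is a description and nothing is read from it. It was also common among like genes: 52 of the 56 others with a site in all 3 controls and a known strand had no knockout peak in the site. The nearest knockout peak was 12 nt away in Pogz, with a log2 fold over the knockout's input of −0.77, and 65 nt away in Pofut1, with 0.23. In Dcaf8, Cactin and C2cd5 it was 84, 92 and 97 nt away, in Gnpat 1353 nt and in Agtrap 3966 nt. Agtrap had only 2 knockout peaks in all and Cactin 9, while Gnpat had 16, Dcaf8 30, Pofut1 13, C2cd5 28 and Pogz 21.

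The deposited lists give no read counts, but the folds recur in steps that whole reads produce. Taking each fold as the log2 ratio of whole reads plus a constant depth term, and each p as the test of the same numbers, gave a unique pair of reads for 92.0% to 97.2% of the peaks with a p below 1 in each list. In the 7 genes, 410 of 431 control peaks gave reads this way (95.1%), 291 of them with the same number of IP reads from both lists. The knockout IP was 1.52, 1.23 and 1.50 times as deep as the IPs of controls 1, 2 and 3 by this term. The recovery allowed no comparator below 1 read, and how the authors treated a comparator without reads is not given. A value of 1 may therefore stand for 0, and 0 and 1 cannot be told apart. The values rest on the counts read from the folds, not on a deposited count.

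The reads below are those of the site peak with the highest fold over the knockout IP. At the Agtrap site, the IPs of controls 1, 2 and 3 held 54, 68 and 102 reads, the inputs 5, 3 and 3, and the knockout IP 1 read at each of the 3 peaks. At the C2cd5 site the IPs held 56, 139 and 101 reads, the inputs 3, 1 and 1, and the knockout IP 2. In C2cd5 the control with the fewest IP reads was thus also the one with the most input reads.

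At the Gnpat site the IPs held 41, 59 and 46 reads in controls 1, 2 and 3, each input 1 read and the knockout IP 1. At the Pofut1 site they held 29, 61 and 35 reads, the inputs 4, 4 and 3, and the knockout IP 1. The enzymes therefore differed in input reads, with Gnpat at the lowest value that the recovery allowed in every control.

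At the Dcaf8 site the IPs held 38, 63 and 45 reads, the inputs 2, 5 and 2, and the knockout IP 1. At the Cactin site they held 26, 82 and 31 reads, the inputs 1, 2 and 2, and the knockout IP 1. At the Pogz site they held 54, 131 and 48 reads, the inputs 2, 3 and 1, and the knockout IP 2. Control 2 had the most IP reads at 6 of the 7 sites, all but Agtrap.

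**Figure D2:**
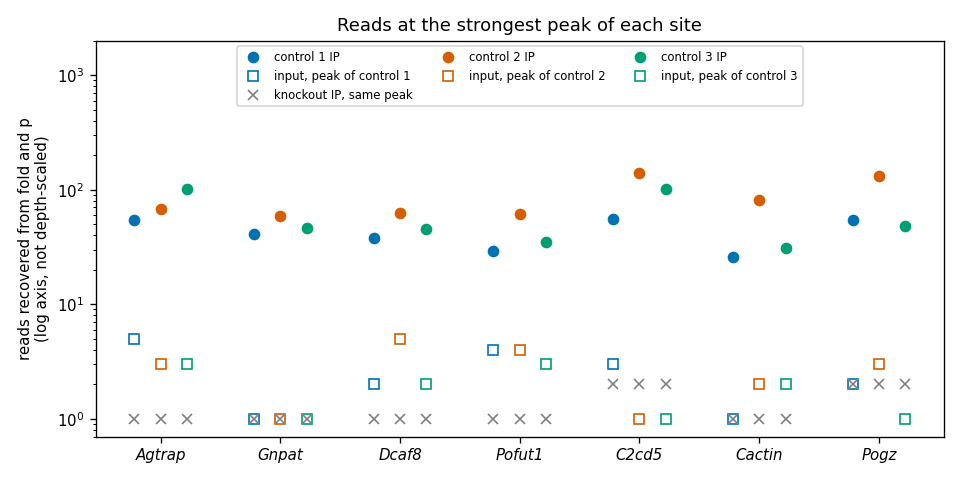
Reads recovered at the strongest peak of each site (log axis, not scaled for depth), with filled circles for the control IPs, open squares for the inputs and crosses for the knockout IP. IP reads run from 26 to 139, input reads from 1 to 5, and knockout IP reads are 1 or 2.

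The knockout IP had 1 read in 15 of the 21 pairs and 2 in the other 6, which were C2cd5 and Pogz. The inputs had 1 to 5 reads (median 2), and the IPs 26 to 139 (median 54). With so few background reads the folds are wide: for Agtrap in control 1 the 95% exact (Clopper-Pearson) interval of the log2 fold over the knockout IP ran from 3.82 to 11.7. For Pofut1 in control 3 the interval over input ran from 1.48 to 5.49, the lowest lower bound of all. The lower bound reached 3 in 18 of the 21 pairs over the knockout IP and in 8 of 21 over input. These intervals cover counting error only, and differences between the 7 sites over the knockout IP are within them.

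Adding 1 read to the IP and to the background lowered the folds, and all 21 pairs stayed at 3 or more over the knockout IP. Over input 19 stayed, and the 2 that fell below were Pofut1 in control 1 (2.90) and in control 3 (2.77). Pofut1 had 4 and 3 input reads in these controls.

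Reads outside the site show how far 1 place dominated each gene. Here the site counts all its called peaks: where a control had abutting peaks in the site, their reads were summed, and a read that crosses their boundary may count more than once. The shares were therefore also taken with the largest peak of the site alone, which changes none in Agtrap and Cactin, where each control had 1 peak in the site. In Cactin, 59.1%, 84.5% and 88.6% of the IP reads in called peaks lay in the site in controls 1, 2 and 3 (77.4% ± 16.0, SD, n = 3). In Agtrap the shares were 58.7%, 76.4% and 86.4% (73.8% ± 14.0, SD, n = 3). In these genes the site held most of the reads in every control.

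In Pogz the shares were 53.8%, 70.0% and 66.2% in controls 1, 2 and 3 (63.3% ± 8.47, SD, n = 3). With the largest peak alone they were 40.1%, 54.8% and 50.5%, so in control 1 the majority rested on the sum of both peaks. In control 3 the 50.5% stood for 52 reads against 51 elsewhere. The reads of 5 other called peaks are missing there, so a majority of the largest peak alone is not shown in control 3. In Gnpat they were 26.6%, 55.6% and 39.2% (40.5% ± 14.5, SD, n = 3), and in C2cd5 18.6%, 61.0% and 26.4% (35.3% ± 22.6, SD, n = 3). With the largest peak alone, control 2 fell to 46.5% in Gnpat and 46.3% in C2cd5, so in neither gene did 1 peak hold the majority in any control. C2cd5 had the widest spread of the 7 summed shares.

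In Dcaf8 the site held 21.1%, 34.8% and 36.0% of the reads (30.7% ± 8.29, SD, n = 3), and in Pofut1 27.0%, 19.8% and 21.5% (22.8% ± 3.78, SD, n = 3). With the largest peak alone the means were 20.9% ± 1.40 in Dcaf8 and 20.8% ± 0.89 in Pofut1 (SD, n = 3). Most reads of these genes lay outside the site in every control. They were spread over many small peaks: the median peak outside the site held 5 to 8 reads in Dcaf8 and 5.5 to 10 in Pofut1, and the highest 33, in Pofut1 in control 2. Peaks with reads that could not be recovered, at most 5 per gene and control, are missing from these shares.

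**Figure D3:**
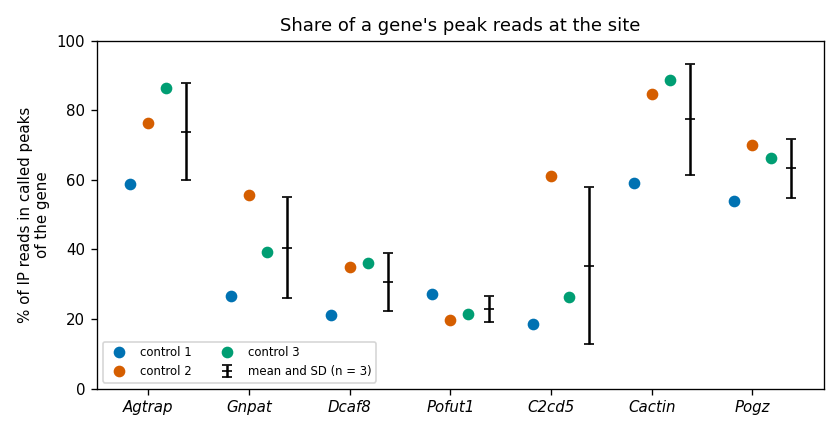
Percent of the IP reads in the called peaks of each gene that lay in the site, for controls 1, 2 and 3, with mean and SD (n = 3) and the reads of abutting site peaks summed. Cactin, Agtrap and Pogz lie above 50% in all 3 controls and Dcaf8 and Pofut1 below 40%. With the largest peak alone, Pogz is at 40.1% in control 1 and at 50.5% in control 3, where the reads of 5 called peaks are missing.

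The gap from the site to the gene's next highest peak over the knockout IP was largest in Cactin, at 4.26 ± 0.59 on the log2 scale (SD, n = 3), and in Agtrap, at 4.04 ± 0.85. It was 3.05 ± 0.64 in Pogz, 3.04 ± 0.12 in Dcaf8, 2.65 ± 1.48 in Gnpat, 2.40 ± 0.12 in Pofut1 and 2.08 ± 0.66 in C2cd5. The median of 3.04 stood beside a median of 1.58 over 55 other genes with a site in all 3 controls. Genes without a known strand were left out of these 55, and so was Rcc1, which had no gap value. Of these 55 genes, 0 had a larger gap than Cactin and 1, Fnbp4, a larger one than Agtrap, while 17 had a larger gap than C2cd5. Over input the gap was 3.83 ± 1.03 in Pogz, 3.52 ± 0.59 in Cactin and 3.23 ± 0.17 in Gnpat (SD, n = 3). It was 2.21 ± 1.24 in Agtrap, 2.02 ± 1.39 in C2cd5, 1.58 ± 1.13 in Dcaf8 and 0.99 ± 0.62 in Pofut1. The lowest single gap over input was 0.40, in Dcaf8 in control 3. Both gaps were partly fixed by the choice of the genes. The next highest peak is also a maximum over the gene's other peaks, whose number differed. Over the 3 controls, Cactin had 6 of them, Agtrap 17, Gnpat 46, Pofut1 62, Pogz 63, Dcaf8 87 and C2cd5 119. How far the gap follows from this number was not tested.

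Outside the sites the 7 genes had 133, 130 and 137 called peaks in controls 1, 2 and 3, 400 in all. Of these, 11 (2.75%) were enriched over the knockout IP, against 0.808% of all called peaks in the 3 lists, and 4 over input, against 0.874%. The 11 peaks lay in 4 genes, Gnpat, Dcaf8, Pofut1 and C2cd5, and Agtrap, Cactin and Pogz had none. Control 2 held 6 of them, control 1 had 2 and control 3 had 3.

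Gnpat had 2 of these peaks. One, at 124885317 to 124885373 in control 1, stood at 4.51 over the knockout IP on the log2 scale, from 15 IP reads, and it lay 225 nt from the site. The other, at 124877442 to 124877511 in control 3, had 3.90. Neither was enriched in another control.

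Pofut1 had 3, all in control 2 and all in the last part of the gene. Their folds over the knockout IP were 3.34 at 153265950 to 153266077, 3.20 at 153266322 to 153266366 and 3.88 at 153268157 to 153268211. Dcaf8 had 2, also in control 2, with 3.24 at 172187230 to 172187351 and 3.10 at 172188793 to 172188886. None of these 5 peaks was enriched over input.

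C2cd5 had 4. Toward its 3′ end, a peak at 143018333 to 143018454 was enriched in control 1 (3.92) and one at 143018103 to 143018192 in control 3 (4.28). A control 2 peak at 143018115 to 143018193 overlapped the latter with a log2 fold of 3.62 from 10 IP reads, but its p missed the threshold. The peak at 143020400 to 143020490 was the single peak outside the sites that was enriched over both backgrounds, with log2 folds of 3.62 against the knockout IP and 4.34 against input in control 2. It had 20 IP reads, 1 input read and 2 knockout reads. The remaining one lay at 143083509 to 143083679 in control 3, with 3.17.

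Merging overlapping peaks of the 3 controls gave 301 places in the 7 genes. Of these, 215 were called in 1 control, 58 in 2 and 28 in all 3. The 28 were the 7 sites and 21 other places, and 8 of the 21 also had a knockout peak. Agtrap and Cactin had no place other than the site that was called in all 3 controls, Pogz had 1, Gnpat 2, C2cd5 5, Dcaf8 6 and Pofut1 7. At the 21 other places the mean fold over the knockout IP ran from −0.25 to 2.94 with a median of 1.81, below the lowest site mean of 5.62.

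In Dcaf8, the log2 folds at 172173946 to 172174058 against the knockout IP were 2.92, 3.00 and 2.90 in controls 1, 2 and 3 (2.94 ± 0.05, SD, n = 3). Over input the same place had 0.05, −0.53 and −0.89 (−0.46 ± 0.47, SD, n = 3). The control IPs held more than the knockout IP there, but on average not more than their inputs. The folds over the knockout IP rest on few reads: 13 IP and 2 knockout reads in control 2, and 5 and 1 in control 3. In control 1 the reads could not be recovered, and the small SD is no measure of the counting error. This place and the following ones were chosen after their values were seen.

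In C2cd5, the place at 143057112 to 143057242 showed the opposite order. Its log2 folds over input were 1.90, 1.82 and 1.60 in controls 1, 2 and 3 (1.77 ± 0.16, SD, n = 3), and over the knockout IP −0.14, −0.60 and 0.00 (−0.25 ± 0.31, SD, n = 3). A knockout peak at the same place had 2.11 over its own input. The IP signal there was thus no higher in the controls than in the knockout. At 143075570 to 143075752 the mean was 3.05 ± 0.75 against input (SD, n = 3), and the knockout had 1.06 over its input. Against the knockout IP the highest peak at this place had 2.77, −0.15 and 2.17 in controls 1, 2 and 3. The peaks of controls 1 and 3 ended at 143075650 and 143075641, while that of control 2 ran from 143075621 to 143075752. Another control 1 peak, at 143075670 to 143075731, had 1.13. The controls are thus partly compared over different stretches, and no difference between them is read from these values.

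**Figure D4:**
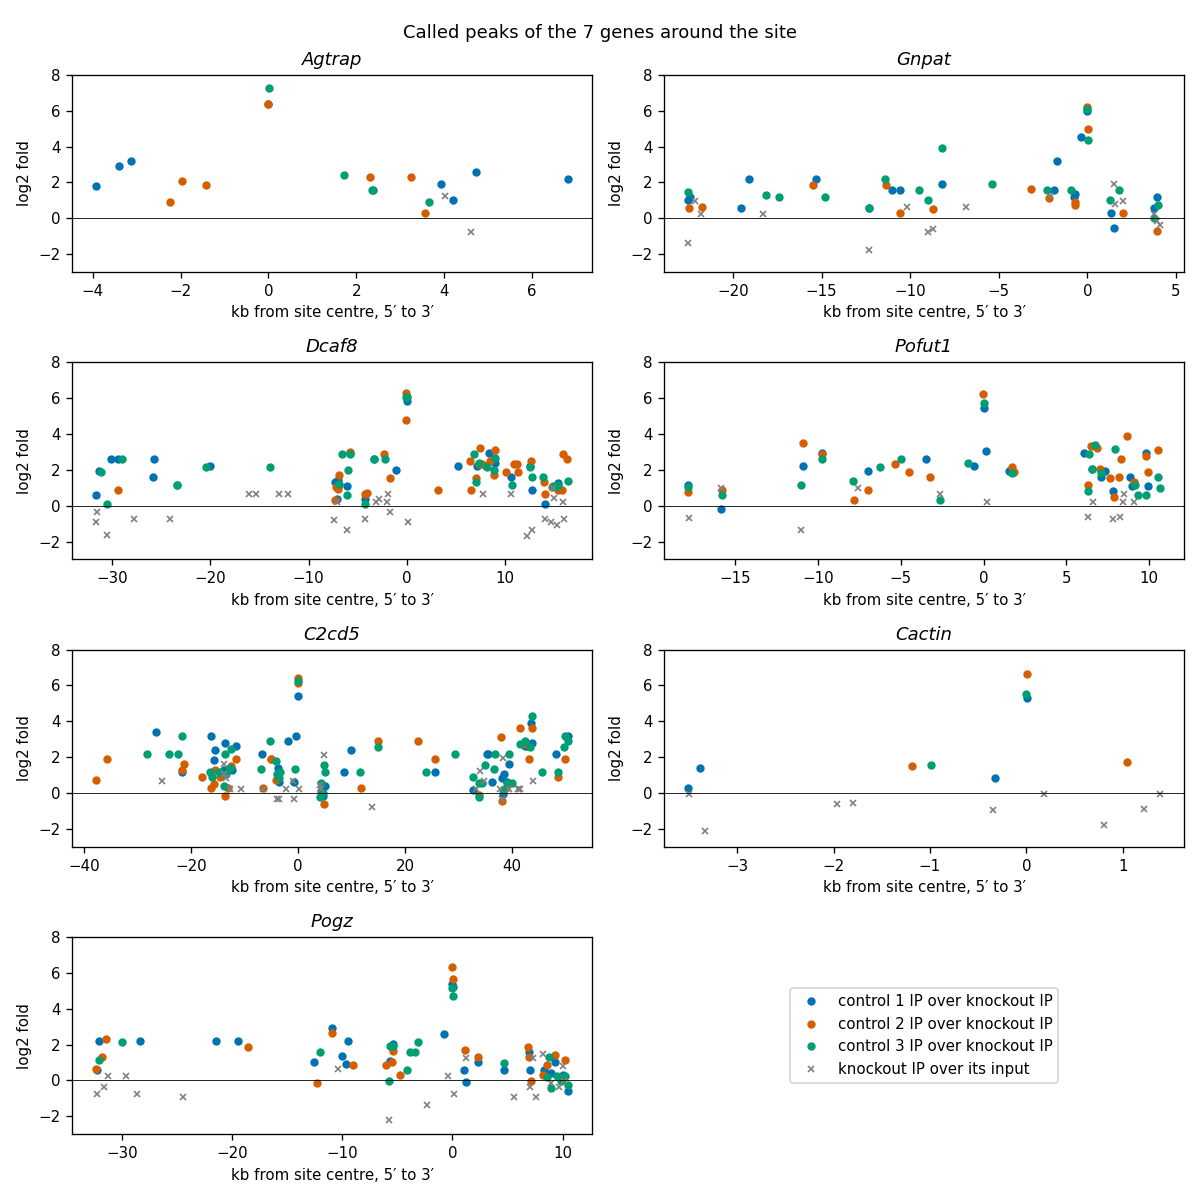
Log2 fold of every called peak of the 7 genes against its distance from the site's centre in kb, 5′ to 3′. Coloured points are control IPs over the knockout IP and grey crosses the knockout IP over its input. The strongest peak of each site stands near 0 kb at 5.17 to 7.26, and no knockout peak exceeds 2.11.

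The other peaks of a gene describe its folds over the knockout IP outside the site. For each gene, the median fold of the peaks outside the site was taken minus the median of all called peaks of the list. A fold over the knockout IP holds both the amount of the RNA and its binding, and more RNA of a gene in the control cells and more binding per RNA cannot be told apart in it. The shift was 0.86 ± 0.04 in Dcaf8, 0.85 ± 0.26 in Agtrap and 0.77 ± 0.21 in Pofut1 (SD, n = 3), above 0 in every control. Over 4855 genes with at least 5 such peaks in each control, the 5% and 95% points were −0.83 and 0.79, and Dcaf8 lay at percentile 95.9 and Pofut1 at 94.7. Among 61 other genes with a site in all 3 controls, the shifts spread wider, at least from −1.15 to 1.59, around a median of −0.01. Dcaf8 and Pofut1 lay inside that range. Agtrap had too few peaks to be placed. Its peaks outside the site held a median of 4.5, 4 and 5 IP reads in controls 1, 2 and 3. How far the shift of a gene follows from such low counts was not tested.

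The shift was 0.35 ± 0.05 in C2cd5 (percentile 78.4), 0.32 ± 0.59 in Cactin, 0.09 ± 0.31 in Gnpat (58.0) and 0.06 ± 0.22 in Pogz (56.3; SD, n = 3). In Gnpat, Cactin and Pogz 1 of the 3 controls lay below 0. Cactin had 1 to 3 peaks outside the site per control, too few to be placed. The same measure over input was −0.12 ± 0.13 in Dcaf8, 0.45 ± 0.32 in Agtrap and 0.21 ± 0.12 in Pofut1 (SD, n = 3). In Dcaf8 the peaks outside the site were thus high over the knockout IP and not over input.

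**Figure D5:**
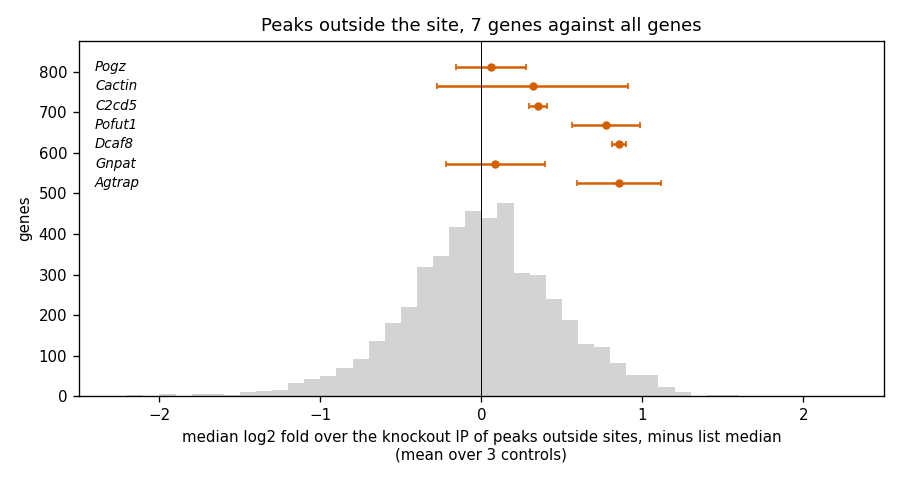
Median log2 fold over the knockout IP of the peaks outside the site, minus the list median, as mean over 3 controls. Grey bars count the 4855 genes, and points with bars are the 7 genes with their SD, drawn at arbitrary heights. Agtrap, Dcaf8 and Pofut1 lie between 0.77 and 0.86, and Gnpat and Pogz near 0.

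At the same site peak, the fold over the knockout IP minus the fold over input was 2.38 ± 0.17 in Pofut1, 2.35 ± 0.42 in Agtrap and 1.96 ± 0.66 in Dcaf8 (SD, n = 3). In Cactin it was 1.18 ± 0.85, in Gnpat 0.52 ± 0.41, in Pogz 0.38 ± 0.45 and in C2cd5 0.05 ± 0.80. The list medians were 0.28, 0.28 and 0.57 in controls 1, 2 and 3. The IP reads cancel in this difference, which is the ratio of 1 to 5 input reads to 1 or 2 knockout reads plus a depth term, and 0 and 1 knockout reads cannot be told apart. The differences between the genes therefore rest on a few reads, no order is read from them, and the part of RNA amounts was not tested.

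The genes whose 6 site folds were nearest to the median of the 7 were Rpl10, Rcc1 and Upf3b. Their Euclidean distances over the 6 log2 folds were 1.29, 1.46 and 1.61. The Rpl10 site lay on chromosome X, 74271552 to 74271634, where the mean log2 fold was 5.80 ± 0.44 against the knockout IP and 5.48 ± 0.38 against input (SD, n = 3).

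The pathways of the 7 genes were followed in 7 lists. None of the 11 other ether lipid and peroxisome import genes with called peaks had a region in at least 2 controls, nor any of 20 Notch genes around Pofut1, 5 renin-angiotensin genes around Agtrap or 25 genes of GLUT4 traffic and insulin signalling around C2cd5. Among 22 CUL4 ligase genes beside Dcaf8, 1 had one: Dtl, another substrate receptor, with a mean log2 fold of 4.88 ± 0.71 against the knockout IP and 4.01 ± 1.24 against input (SD, n = 3) on chromosome 1, 191548396 to 191548519. In all, 4 of 128 list genes had a region, 3.13%, beside 2.36% of all genes.

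Among 22 late spliceosome genes beside Cactin, 2 had a region, and both are components of the U5 particle. The mean log2 fold of Eftud2 was 3.80 ± 0.34 against the knockout IP and 3.61 ± 0.47 against input (SD, n = 3). Prpf8 had 4.24 ± 0.26 and 4.06 ± 1.04 (SD, n = 3). Among 24 heterochromatin genes beside Pogz, 1 had a region: Wiz, a partner of the histone methyltransferases G9a and GLP, with 5.14 ± 0.91 against the knockout IP and 4.29 ± 1.28 against input (SD, n = 3). The share of list genes with a region thus lay near that of all genes.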

How the data were processed

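Per the labels, RNA from 4 anti-Zmat3 IPs and 4 inputs was sequenced. The authors deposited 7 peak lists without headers: 3 control IPs over input, the same 3 over the knockout IP, and the knockout IP over input. For each peak the authors deposited coordinates with strand, a −log10 p-value (at most 400) and a log2 fold, with units read from the values and the layout. The build is mm10, per the submitters' processing notes. The aligner, peak caller, input library of each list and handling of duplicates were not named in the labels or notes used here. Library totals are unknown.

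The genes and lists were chosen with earlier results of these data known. Peaks were assigned by strand and midpoint to 1 protein-coding span of the RefSeq gene table. For a gene without a known strand, the midpoint alone was used. Control peaks qualified when enriched over input and when they shared at least 1 nt with a peak enriched over the knockout IP in that control's other list, and were merged. Named besides the 7 genes were the genes ranked next to them, the 3 with the nearest folds and every list gene with a region in at least 2 controls. Region calling and the recovery of reads, which was added after the data were seen, were run on simulated data. There, planted peaks lay above both thresholds and all others below, and p came from a formula that the recovery itself uses. These runs therefore check the code only, and no simulated comparator was without reads. An exact permutation test of 3 against 1 library cannot go below p = 0.25, so none was run. Nothing says whether the control lines came from separate cultures of different embryos, so SDs cover the spread between these lines. Alternatives were other thresholds, overlaps and peaks, and leaving out each control. Python 3.11.15 with numpy 2.4.6 and pandas 2.3.3 was used.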

Additional observations from a re-analysis of the deposited data

How the results depend on the processing

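No paired analysis was possible because the deposited lists compare each IP with a comparator and no test between groups was made. Of 39 alternative values, 32 stayed within the spread between controls or within 1.5 times the count, 7 moved and 0 reversed. The median site fold over the knockout IP was 6.02 and ran from 5.82 to 6.14 when 1 control was left out; with 1 read added to IP and comparator, chosen after seeing the data, it was 5.10. Over input it was 4.65, ran from 4.33 to 5.19 (the highest without control 3), and was 3.97 with 1 read added. The median gap of 3.04 ran from 2.72 to 3.25 when 1 control was left out and was 2.21 when the next peak had to have a −log10 p of at least 3, which 4 genes had. The median shift of the other peaks, 0.35, ran from 0.32 to 0.66 (the highest without control 1), was 0.81 with the site's own peaks kept in and 1.37 with no list median subtracted; the last follow from their construction, and the cause of the others was not tested. Exactly 1 region was also found in 50 of the 56 other genes with a site in all 3 controls and a known strand. Among the 7 genes, the number with exactly 1 region was 7. It was 6 at a log2 fold of at least 4 (Pofut1 had 0), with support by 1 control (C2cd5 had 2), with an overlap of 50% of the shorter peak (Pogz had 2) and without control 1 (Dcaf8 had 2), and 7 otherwise. The list genes with a region numbered 4, and 3 to 5 under the alternatives (3 without control 2 and without control 3). The share of reads in the site with its largest peak alone, also chosen after seeing the data, moved by more than the SD in Dcaf8 (from 30.7% to 20.9%) and Pogz (from 63.3% to 48.5%).

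The knockout was 1 library, the reads were inferred, and 1 to 5 background reads set the precision of every site fold. The order of the 7 genes by fold is therefore not resolved at this depth.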
